A study of Mus musculus with 8 samples.

Results

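Pbsn, Tgm4, 9530053A07Rik, 9530002B09Rik and 5430419D17Rik encode proteins that prostate epithelium secretes, and they are described here in 8 whole prostates of male NOD/ShiLtJ mice. They were chosen by name as secretory genes of the dorsal and anterior lobes, with their levels in these data known, and they are 5 of the 54532 genes in the table. The NOD mouse is an inbred strain that develops autoimmune disease including diabetes. 4 mice received PBS (control 1, 3, 65 and 69) and 4 received etanercept (etanercept 17, 19, 50 and 52), a decoy receptor for the cytokine TNF, at 4 mg/kg in 2 injections per week over 5 weeks. All prostates were collected at 30 weeks of age. The number after the group is the animal number, and each mouse gave 1 library. Diabetic and non-diabetic mice were pooled in the study, and the labels do not say which of the 8 mice were diabetic. The comparison asks whether blocking TNF changes expression in the prostate.

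The mouse prostate has ventral, lateral, dorsal and anterior lobes around the urethra, and the luminal cells of each lobe make their own mix of secreted proteins under the control of androgens. Probasin (Pbsn) is a lipocalin known as an androgen-regulated product of the dorsal and lateral lobes. Tgm4 is the prostate transglutaminase, which cross-links seminal vesicle proteins into the copulatory plug. The seminal vesicles lie against the anterior lobe and make the Svs proteins, while spermine-binding protein (Sbp) and the protease inhibitor Spink1 are classical ventral lobe products. A whole prostate gives 1 value per gene over all lobes, so fewer cells of a lobe and less RNA per cell cannot be told apart.

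In GRCm38 with the GENCODE M21 annotation, Pbsn (ENSMUSG00000000003) lies on the minus strand at chrX:77837901-77853623 with 7 exon blocks and 902 exonic bases. The other members are on the plus strand. Tgm4 (ENSMUSG00000025787) is at chr9:123034726-123067561 with 16 exon blocks and 4555 exonic bases. 9530053A07Rik (ENSMUSG00000078776) is at chr7:28129466-28164811, next to Fcgbp, with 19 exon blocks and 11843 exonic bases, and RefSeq gives it the synonym FCGBP, the name of a mucus protein that binds the Fc part of IgG. 9530002B09Rik (ENSMUSG00000023263) is at chr4:122689275-122705129 with 5 exon blocks and 803 exonic bases, and its RefSeq synonyms are Aump, Vpp1 and Vppl. 5430419D17Rik (ENSMUSG00000006204) is at chr7:131174402-131306451 with 69 exon blocks and 8572 exonic bases, and its current RefSeq symbol is Cdcp3, for a CUB domain-containing protein. All 5 genes are annotated as protein-coding. Tgm4 shares 307 exonic bases with Gm49323 on the same strand and 830 with Zdhhc3 on the opposite strand, so its count is uncertain to that extent. Of the 50-base windows of the 9530053A07Rik exons, 5.76% also occur in Fcgbp.

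The promoters of 4 members were found in the RefSeq table (GRCm38.p6) and are shown because the members fell into opposite patterns between mice. Each line gives the 250 bases before the RefSeq start, 5′ to 3′ on the gene's strand, with matches to 2 motifs in capitals. These are the androgen response half-site, with the letters TGTTCT and on the other strand read as AGAACA, and the TATA box, searched by the letters TATAAA on both strands. They lie at chrX:77853501-77853750 (Pbsn), chr9:123034491-123034740 (Tgm4), chr7:28129216-28129465 (9530053A07Rik) and chr4:122689009-122689258 (9530002B09Rik).
Pbsn: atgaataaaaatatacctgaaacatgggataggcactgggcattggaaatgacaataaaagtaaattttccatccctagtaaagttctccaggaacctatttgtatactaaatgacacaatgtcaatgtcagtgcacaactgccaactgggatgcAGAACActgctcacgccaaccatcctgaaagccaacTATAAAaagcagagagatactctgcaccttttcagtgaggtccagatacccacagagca
Tgm4: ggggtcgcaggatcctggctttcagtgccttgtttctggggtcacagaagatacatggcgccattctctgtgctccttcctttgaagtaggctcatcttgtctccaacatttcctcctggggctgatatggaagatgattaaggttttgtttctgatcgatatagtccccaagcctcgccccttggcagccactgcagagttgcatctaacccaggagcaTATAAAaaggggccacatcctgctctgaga
9530053A07Rik: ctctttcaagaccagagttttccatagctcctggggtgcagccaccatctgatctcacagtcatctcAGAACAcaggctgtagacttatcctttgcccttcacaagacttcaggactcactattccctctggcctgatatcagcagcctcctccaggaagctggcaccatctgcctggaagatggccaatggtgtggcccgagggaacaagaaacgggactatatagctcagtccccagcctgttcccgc
9530002B09Rik: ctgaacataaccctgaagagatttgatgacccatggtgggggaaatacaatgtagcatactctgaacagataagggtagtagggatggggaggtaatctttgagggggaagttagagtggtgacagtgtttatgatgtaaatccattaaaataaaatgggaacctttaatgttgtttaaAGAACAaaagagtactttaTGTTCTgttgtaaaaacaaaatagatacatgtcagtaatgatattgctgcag

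A half-site was found at 95 bases before the start in Pbsn and at 183 bases in 9530053A07Rik, and 9530002B09Rik held matches at 71 and at 52 bases. A TATA box lay 59 bases before the start of Pbsn and 30 bases before that of Tgm4. The GENCODE start of Pbsn lies upstream of the RefSeq start and within the window shown, so that both matches in Pbsn fall inside the GENCODE gene. Over 32851 promoters of this length and on both strands, 16.1% held the half-site and 12.4% the TATA box. Neither the full androgen response palindrome, made of both half-site letters around any 3 bases and found in 0.0091% of all promoters, nor the forkhead core TGTTTAC, found in 3.17%, was in the 4 windows. The half-site therefore occurs on both sides of the split in expression that follows. No entry for 5430419D17Rik was found in the table under that name.

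The 8 libraries held between 13760669 and 25178942 counts. The mice differed widely in products of the ventral lobe and of the seminal vesicles. Sbp, its relative Sbpl and Spink1 together took 0.209%, 8.05%, 1.94% and 24.8% of all counts in control 1, 3, 65 and 69, and 0.186%, 19.9%, 20.6% and 7.22% in etanercept 17, 19, 50 and 52. The 9 seminal vesicle genes took 9.41% in etanercept 17, 0.366% in control 69 and at most 0.0641% in the other mice. No count of these 9 genes was found in control 3, which at a floor of 3 counts allows a share of up to 2.13e-05%. The 4 seminal vesicle genes that passed the expression filter had r of log2(CPM + 1) between -0.30 and -0.21 with Pbsn and between 0.09 and 0.19 with 9530002B09Rik over the 8 mice.

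9530053A07Rik had the most counts of the members in the mean over mice. Its level, as CPM (counts scaled to library size and by TMM factors), was 75490, 33118, 90644 and 11984 in control 1, 3, 65 and 69. The level was 92229, 34407, 15574 and 88451 CPM in etanercept 17, 19, 50 and 52. It was the most abundant gene of all in control 1, control 65, etanercept 17 and etanercept 52, the second in control 3 and etanercept 19, and the fifth in control 69 and etanercept 50. Both groups thus contained high, intermediate and low mice, and the groups overlapped.

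Pbsn followed the same mice. It measured 9156, 3178, 8662 and 1092 CPM in the control mice and 7206, 3541, 1740 and 8008 CPM in the etanercept-treated mice, in the order of the animal numbers. Control 69 and etanercept 50 were lowest and the other 6 mice had at least 3178 CPM, so the groups overlapped over most of their range.

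Tgm4 measured 1045, 1309, 3148 and 366 CPM in the control mice and 5571, 2229, 860 and 8425 CPM in the etanercept-treated mice. Etanercept 17 and 52 stood above all control mice, and control 69 and etanercept 50 were again lowest. Control 1, which had the highest Pbsn, was only sixth of the 8 mice in Tgm4.

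9530002B09Rik ran the other way. It measured 1752, 3439, 2563 and 11123 CPM in the control mice and 2219, 8117, 9037 and 4875 CPM in the etanercept-treated mice. The highest mice were control 69 and etanercept 50, where Pbsn, Tgm4 and 9530053A07Rik were lowest, and the lowest mouse was control 1.

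5430419D17Rik shared that direction. It measured 925, 3318, 3521 and 14865 CPM in the control mice and 93.8, 10606, 9765 and 4214 CPM in the etanercept-treated mice. Etanercept 17 stood far below the other mice, with 1614 counts, and it was also the mouse with the lowest share of Sbp, Sbpl and Spink1 and the highest share of seminal vesicle products.

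**Figure D1:**
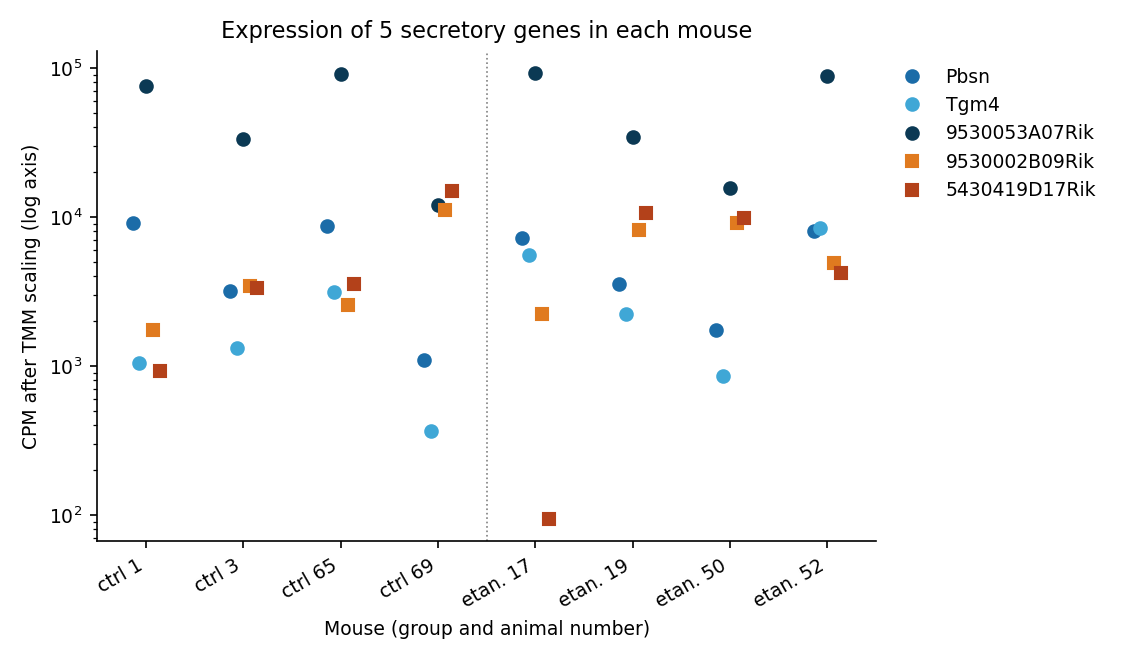
CPM after TMM scaling (log axis) of the 5 genes in each of the 8 mice (ctrl, control; etan., etanercept-treated), circles for Pbsn, Tgm4 and 9530053A07Rik and squares for 9530002B09Rik and 5430419D17Rik. In control 69 and etanercept 50 the squares are high where the circles are low, and in etanercept 17 5430419D17Rik drops to 93.8 CPM.

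The label of a dorsal and anterior set therefore went against the data for 9530002B09Rik. 5430419D17Rik is placed with it by the r of 0.80 between these 2 genes, and its own r with the ventral genes was not computed. Over the 8 mice, Pearson's r of log2(CPM + 1) between Sbp and 9530002B09Rik was 0.92, and for Sbpl and Spink1 with 9530002B09Rik it was 0.91 and 0.93. Between the same ventral genes and Pbsn it was -0.76, -0.71 and -0.77. Msmb, a microseminoprotein gene placed with the ventral and lateral list, was less clear, with an r of 0.47 with 9530002B09Rik and -0.30 with Pbsn. 9530002B09Rik and 5430419D17Rik are called the ventral-pattern pair below, and Pbsn, Tgm4 and 9530053A07Rik the Pbsn-pattern genes. These names refer to the pattern between mice and not to a lobe measured on its own.

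Together the 5 genes held 9.72%, 4.73%, 11.2% and 3.62% of all counts in control 1, 3, 65 and 69, and 10.4%, 5.60%, 3.55% and 11.6% in etanercept 17, 19, 50 and 52. The mean was 7.32% ± 3.71 (SD, n = 4) in control and 7.78% ± 3.82 (SD, n = 4) in etanercept-treated mice, a difference well within the spread between mice. Counting error is small against this spread, since the Wilson 95% interval in control 69 began at 3.61%. Pbsn, Tgm4 and 9530053A07Rik accounted for 1.23% to 10.6% of a library and the ventral-pattern pair for 0.224% to 2.38%. 9530053A07Rik alone made up 85.9% of the counts of the 5 genes in etanercept 17 and 30.4% in control 69.

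**Figure D2:**
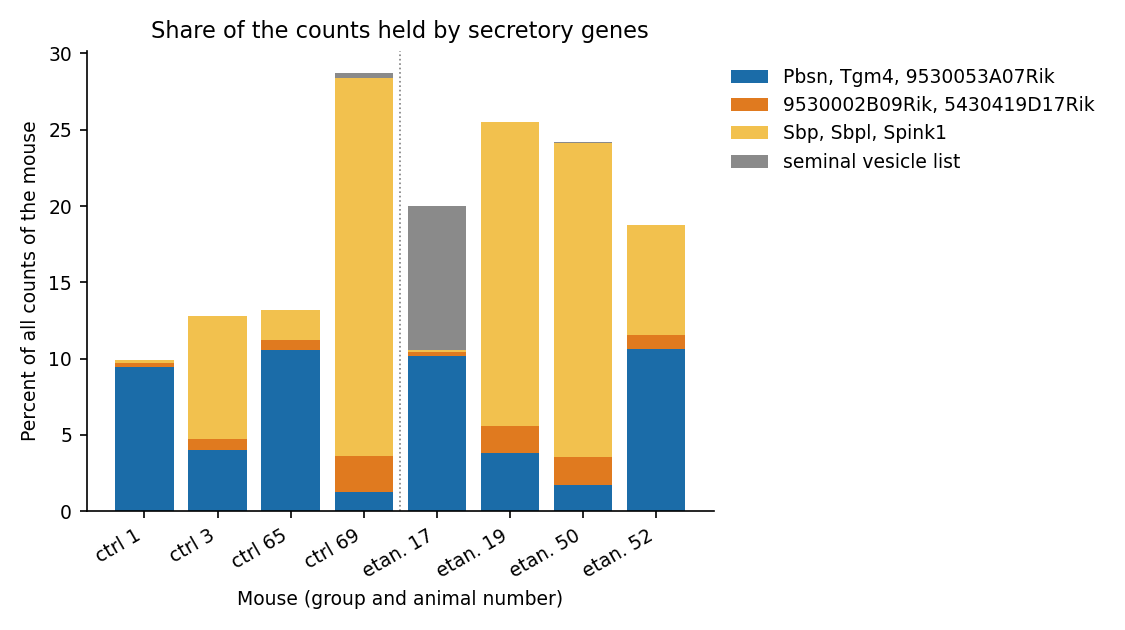
Percent of all counts of each mouse held by the Pbsn-pattern genes, the ventral-pattern pair, the ventral genes Sbp, Sbpl and Spink1, and the 9 seminal vesicle genes, stacked. The Pbsn-pattern share is between 9.43% and 10.6% in 4 mice, 2 of each group, and the ventral share is largest in control 69, etanercept 19 and etanercept 50.

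Per length, as FPKM computed from the TMM-scaled CPM, 9530002B09Rik had the highest mean level of 6713, followed by Pbsn with 5901 and 9530053A07Rik with 4664. These 3 levels overlapped between mice, from 2182 to 13852 for 9530002B09Rik, from 1211 to 10151 for Pbsn and from 1012 to 7788 for 9530053A07Rik, and neighbours in this order did not differ beyond their spread. 5430419D17Rik (mean 690 FPKM) and Tgm4 (mean 630 FPKM) had lower means, with ranges of 10.9 to 1734 and 80.3 to 1850 FPKM, and they too were not separated by their spread. These ranges overlapped those of Pbsn and 9530053A07Rik but not that of 9530002B09Rik, and in control 69 5430419D17Rik (1734 FPKM) exceeded Pbsn (1211) and 9530053A07Rik (1012). The long 9530053A07Rik thus led in counts but not per length.

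The variation between mice was wide. The highest mouse exceeded the lowest 8.38-fold for Pbsn, 23.0-fold for Tgm4, 7.70-fold for 9530053A07Rik, 6.35-fold for 9530002B09Rik and 158-fold for 5430419D17Rik. The last value was 16.1-fold without etanercept 17. Without control 69 it was 5.26-fold for Pbsn and 9.80-fold for Tgm4, and without etanercept 52 it was 15.2-fold for Tgm4. The median of the 15472 genes tested was 2.49-fold, and that of the 92 genes with a mean of at least 1000 CPM was 2.58-fold. The group explained 0.18% of the variance of log2(CPM + 1) for Pbsn, 0.60% for 9530053A07Rik, 1.21% for 5430419D17Rik, 8.53% for 9530002B09Rik and 27.3% for Tgm4.

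Correlations between the members are descriptions over 8 mice, since the genes were chosen with these values known and the points share the composition of their libraries. Pearson's r of log2(CPM + 1) was 0.99 for Pbsn and 9530053A07Rik, 0.82 for Tgm4 and 9530053A07Rik and 0.76 for Pbsn and Tgm4. The pair of 9530002B09Rik and 5430419D17Rik had an r of 0.80. All 6 pairs across the 2 patterns were negative, from -0.84 for Pbsn and 9530002B09Rik to -0.44 for Tgm4 and 9530002B09Rik, a value that was -0.15 without control 69 and -0.67 without control 1. Without control 69 and etanercept 50, the mice farthest from the median of Pbsn, r was 0.96 for Pbsn and 9530053A07Rik and 0.35 for Pbsn and Tgm4, so over the 6 remaining mice the latter relation was weak. With single mice left out, the r of Pbsn and Tgm4 was lowest without control 69 (0.58) and highest without control 1 (0.95), the mouse with the highest Pbsn. The r of Pbsn and 9530002B09Rik was -0.62 without control 69 and etanercept 50, and between -0.91 and -0.77 without single mice. With the group means removed, the r of Pbsn and Tgm4 was 0.87. Taken relative to the mean of the luminal markers in place of CPM, the r of Pbsn and 9530002B09Rik was -0.85.

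Ratios within a mouse showed which members kept step. 9530053A07Rik stood between 8.25 and 12.8 times Pbsn in CPM in every mouse. 5430419D17Rik was 0.0423 times 9530002B09Rik in etanercept 17 and between 0.528 and 1.37 times in the other 7 mice. 9530002B09Rik was 0.191 times Pbsn in control 1 and 10.2 times in control 69.

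Other genes followed the members closely. Among 11308 genes with a mean of at least 5 CPM, those with the highest Pearson r over the 8 mice are named for each member, with the reminder that the highest of so many values over 8 points will be high. For Pbsn they were the complement protease gene C1rb (0.99), 9530053A07Rik itself (0.99), the carbonic anhydrase gene Car2 (0.98) and the membrane protein genes Tmem45b and Tmem45a (both 0.98). For 9530053A07Rik they were Gm19461, Glb1l3, the transcription factor gene Gata2, the Wnt inhibitor gene Nkd1 and Asb16 (all 0.99). For Tgm4 they were the sorting nexin gene Snx2 (0.99), Scube2 (0.99), Tmem97 (0.98), the membrane protease gene Adam10 (0.98) and the glyoxalase gene Glo1 (0.98).

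For 9530002B09Rik the nearest genes were Mat2a, which makes S-adenosylmethionine, Aldh6a1, the phosphorylase kinase gene Phkb, the claudin gene Cldn23 and Serinc5 (all 0.99). For 5430419D17Rik they were Glt1d1, Papss2, which makes the sulfate donor, the ion cotransporter gene Slc12a2, the transcription factor gene Creb3l4 and the collagen-modifying Plod2 (all 0.99). No gene stood in more than 1 of the 5 lists of nearest genes, those of members with the same pattern included.

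The genes of androgen regulation divided unevenly between the patterns. Of the 16 tested, 4 had a positive r with Pbsn (median -0.54) and 13 with 9530002B09Rik (median 0.46). Values for single genes follow as examples of both sides. Ndrg1 (r = 0.83) and Pmepa1 (r = 0.72), an inhibitor of androgen and TGF-beta signalling, went with Pbsn. Fkbp5, a chaperone gene that androgens and glucocorticoids induce, had an r of 0.91 with 9530002B09Rik and -0.81 with Pbsn. The polyamine enzyme gene Odc1 (0.95), the homeobox gene Hoxb13 (0.90) and the pioneer factor gene Foxa1 (0.87) likewise went with 9530002B09Rik. Fkbp5 measured 70.9, 261.0, 159 and 618 CPM in the control mice and 68.7, 384, 283 and 211 CPM in the etanercept-treated mice, so control 69 was highest and control 1 and etanercept 17 were lowest, as for the ventral genes.

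**Figure D3:**
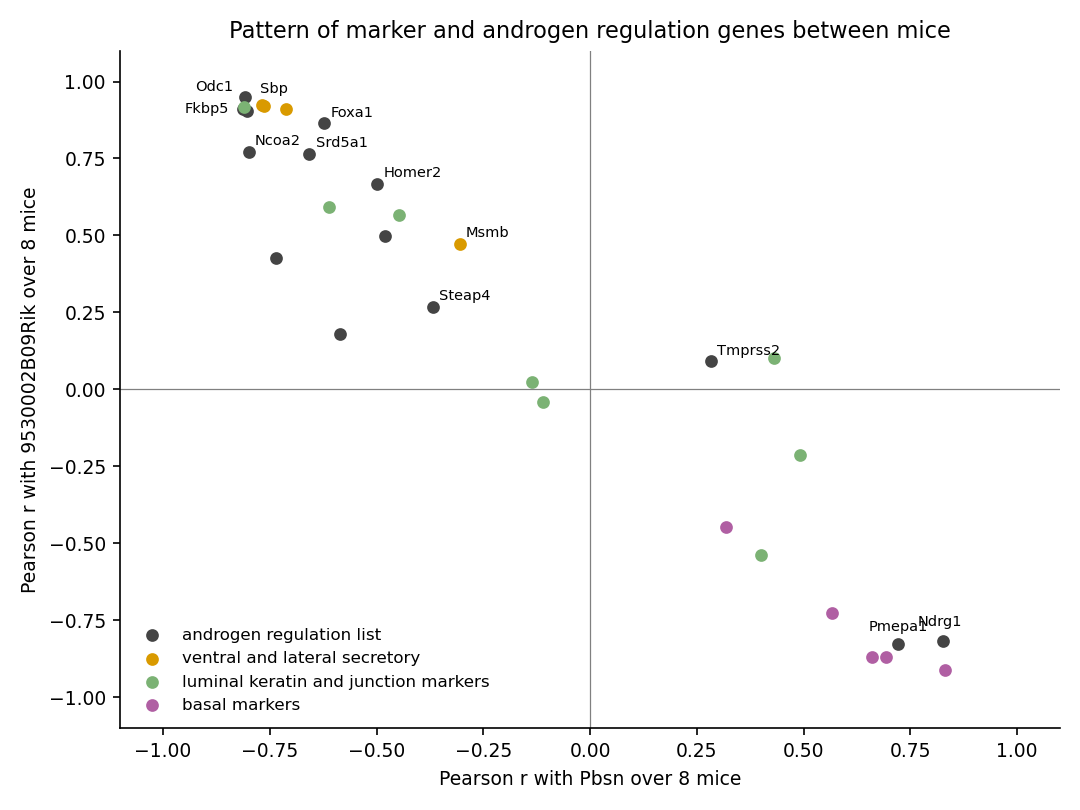
Pearson's r over 8 mice of each gene's log2(CPM + 1) with Pbsn (horizontal) and with 9530002B09Rik (vertical), for reported genes of the androgen regulation, ventral and lateral secretory, luminal and basal lists. Odc1, Fkbp5 and Sbp lie at the upper left and Ndrg1 and Pmepa1 at the lower right, where all 5 basal markers also lie.

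Markers of some other cells moved with the 2 patterns. The median r with Pbsn was -0.11 for smooth muscle, -0.21 for fibroblast, -0.19 for adipocyte and -0.04 for leukocyte markers. It was -0.32 for skeletal muscle and -0.53 for proximal luminal markers. All 5 basal cell markers were positively correlated with Pbsn, from 0.32 for Krt15 to 0.83 for Krt14, and negatively with 9530002B09Rik, from -0.45 for Krt15 to -0.91 for Krt14. Of the 3 urothelial markers tested, Upk1b (0.94) and Upk2 (0.81) went with Pbsn and Upk1a (-0.73) against it, and all 4 nerve and glia markers were positive, with a median of 0.68 beside 0.66 for the basal list. The 8 luminal markers did not share a direction. With Pbsn, 3 of them were positive, Cd24a (0.49), Dpp4 (0.43) and the keratin gene Krt18 (0.40), and 5 were negative, among them Cldn3 (-0.61) and the junction gene Cdh1 (-0.81), and the median was -0.12. With 9530002B09Rik the values were -0.21, 0.10, -0.54, 0.59 and 0.92 in the same order. Cdh1 was named after its values were seen. The part of these cells in the patterns was not tested. Fcgbp, the neighbour of 9530053A07Rik, had an r of 0.94 with Pbsn at between 0.110% and 0.288% of the CPM of 9530053A07Rik. The part of shared sequence in that value was not tested. Of the other transglutaminases, Tgm2 was present in all mice at 88.6 to 146 CPM with an r of 0.46 with Pbsn, and Tgm1 and Tgm5, both of keratinising epithelia, had r of 0.84 and 0.89 with 9530002B09Rik at 11.4 CPM or less.

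Of the 44 genes of the secretory pathway tested, 25 had a positive r with Pbsn (median 0.18) and 20 with 9530002B09Rik (median -0.09), close to an even split. Values for single genes follow as examples of both sides. Agr2, a disulfide isomerase gene of mucus-producing cells, had an r of 0.82 with Pbsn, and the endoplasmic reticulum stress gene Manf had 0.79. The secretory granule genes Rab3d and Rab27b had r of 0.96 and 0.91 with 9530002B09Rik, and the coat protein gene Sec31a had 0.90. Manf, Rab3d, Rab27b and Sec31a were named after their values were seen.

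No member differed between the groups in the edgeR quasi-likelihood test. All 5 passed the expression filter, and with a threshold of 0.05 on the adjusted p 0 of 5 were called, beside 0% of the 15472 genes tested. At the same threshold on the unadjusted p it was again 0 of 5, beside 6.62% of these genes (1024). DESeq2 called 0 of 5 members beside 0.113% of its genes (21), and on its unadjusted p 0 of 5 beside 5.84%. The mean CPM of Tgm4 was 1467 ± 1189 (SD, n = 4) in control and 4271 ± 3403 (SD, n = 4) in etanercept-treated mice. Its log2 fold change was 1.54 with a standard error of 0.77, a 95% interval of -0.17 to 3.26 and an adjusted p of 0.769 in edgeR. For Pbsn the log2 fold change was -0.11 with an interval of -1.63 to 1.42. The intervals were -1.58 to 1.83 around 0.13 for 9530053A07Rik, -1.06 to 1.78 around 0.36 for 9530002B09Rik and -2.36 to 2.61 around 0.13 for 5430419D17Rik. The adjusted p of these 4 genes in edgeR lay between 0.968 and 0.997. The intervals include changes of more than 2-fold in both directions for all of these 4, so the data do not show that the groups are alike.

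Leaving out single mice turned the sign for 3 members. Pbsn turned without control 1, control 65, etanercept 19 or etanercept 50, 9530053A07Rik without control 3, control 69, etanercept 17 or etanercept 52, and 5430419D17Rik without control 1, control 3, control 65, etanercept 19 or etanercept 50. The log2 fold change of Tgm4 stayed between 0.96 and 2.21. Among mice numbered below 20, mean log2(CPM + 1) of Tgm4 was 1.59 higher with etanercept (2 against 2 mice), and among those above 49 it was 1.33 higher (2 against 2). For 5430419D17Rik the same differences were -0.81 and -0.17, opposite in sign to the fit.

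**Figure D4:**
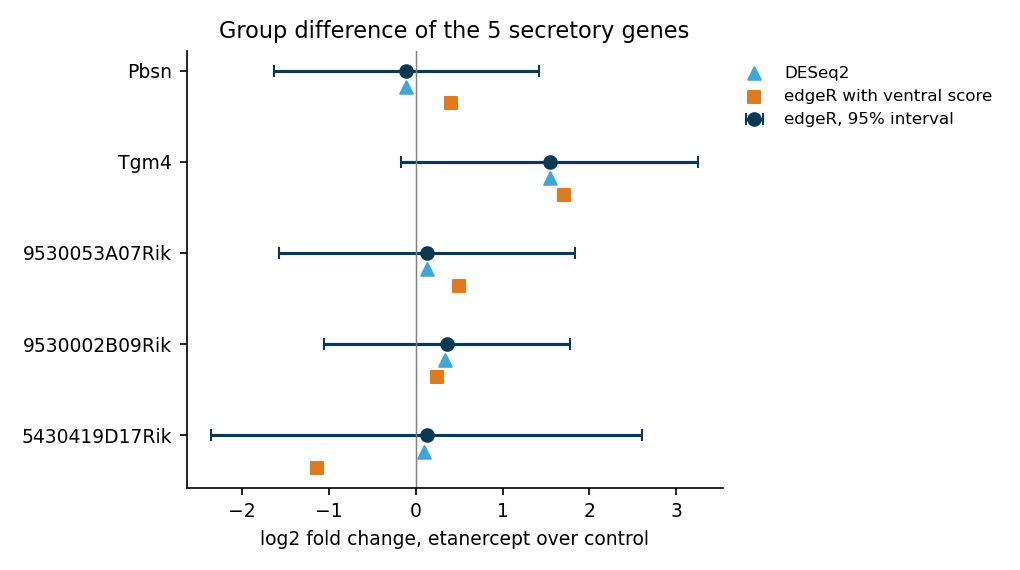
Log2 fold change of etanercept-treated over control mice for the 5 genes (4 mice a group) in edgeR with its 95% interval, in DESeq2 and in edgeR with the ventral score as a covariate. All 5 intervals include 0, and that of Tgm4 reaches from -0.17 to 3.26.

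As the ventral content differed widely between mice, the fit was repeated with the mean log2(CPM + 1) of Sbp, Sbpl and Spink1 as a covariate, an alternative chosen after the data were seen. Tgm4 then had a log2 fold change of 1.71 with a standard error of 0.72, an unadjusted p of 0.0405 and an adjusted p of 0.531 in edgeR. In that fit 9.17% of all genes reached an unadjusted p of 0.05 or less (4.56% higher with etanercept) and 0% were called. Pbsn was at 0.41, 9530053A07Rik at 0.50, 9530002B09Rik at 0.24 and 5430419D17Rik at -1.13, and none of them had an adjusted p under 0.571.

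The level of Tgm4 relative to Pbsn, also examined after the values were seen and so given without a test, was 0.114, 0.412, 0.363 and 0.335 in control 1, 3, 65 and 69. In etanercept 17, 19, 50 and 52 it was 0.773, 0.629, 0.494 and 1.05. The groups did not overlap, and the mean ratio was 2.58-fold higher with etanercept on the log scale. Part of this fold rests on control 1, whose 0.114 stood apart from the 0.335 to 0.412 of the other control mice. Of 15471 genes taken relative to Pbsn, 0.0259% (4 genes) were higher with etanercept without overlap and 0.0452% (7) lower. The 4 higher genes were Tgm4, Scube2, Pak3 and Greb1, of which Pak3 and Greb1 were named after their values were seen. Pbsn itself differed 8.38-fold between mice, so division by it makes genes that do not follow it overlap. The share is therefore low by construction and is not a background for a gene that follows Pbsn. Among the 7 lower was C1rb, the gene most alike to Pbsn, at only 0.838-fold. In CPM, without division by Pbsn, 2.41% of all genes were higher with etanercept without overlap and 2.53% lower, and 0 of the 5 members were among them. Tgm4 relative to 9530053A07Rik was likewise without overlap, with 1.38%, 3.95%, 3.47% and 3.05% in the control mice and 6.04%, 6.48%, 5.52% and 9.52% in the etanercept-treated mice. 9530053A07Rik relative to Pbsn differed 1.06-fold and overlapped.

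**Figure D5:**
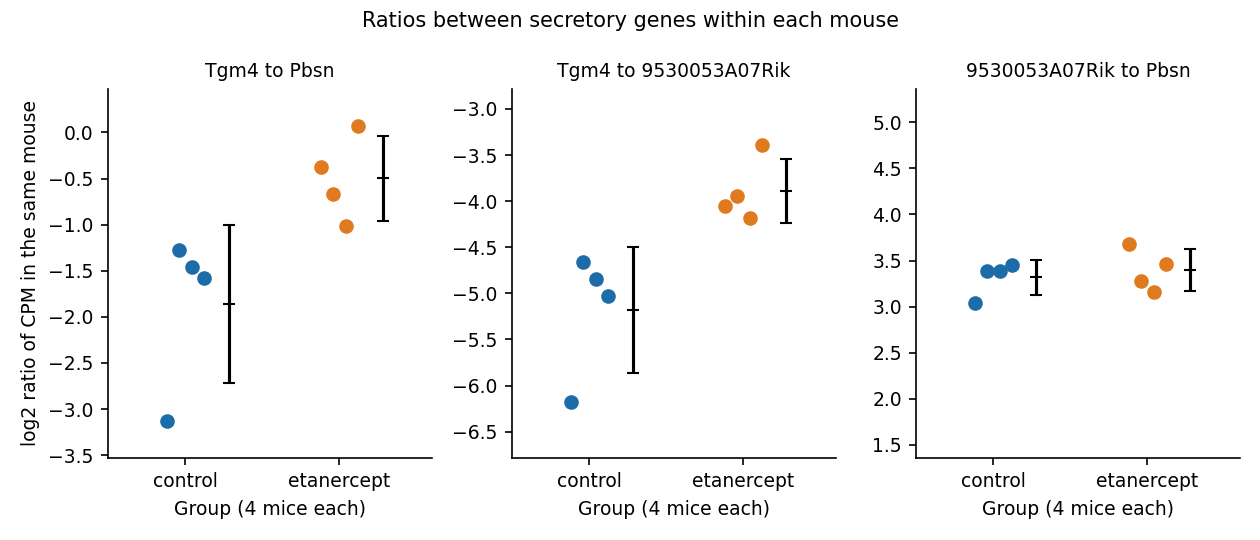
Log2 ratio of CPM within each mouse for Tgm4 to Pbsn, Tgm4 to 9530053A07Rik and 9530053A07Rik to Pbsn, with the mean and SD of 4 mice beside the points, and vertical axes of equal span but different position. The etanercept-treated mice lie above all control mice in the first and second panels and overlap with them in the third, and control 1 is lowest in each.

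None of the genes in the other lists was called by edgeR at the adjusted threshold. Of the 16 androgen regulation genes tested, 1 reached an unadjusted p of 0.05 or less, the metalloreductase gene Steap4 at a log2 fold change of -0.95 (adjusted p of 0.739 in edgeR), and the list's median was -0.09 beside -0.01 over all genes. Fkbp5 had a log2 fold change of -0.23 and Odc1 of 0.24. All 4 ventral and lateral genes lay between -0.40 (Msmb) and 0.52 (Spink1), with standard errors of 0.69 to 1.41. The secretory pathway list had 1 gene higher (Sec24d, 0.44) and 1 lower (Sec61b, -0.40) of 44 at that unadjusted threshold, with a median of 0.08. The 4 seminal vesicle genes tested lay between 3.81 (Svs4) and 4.88 (Svs2) with standard errors of 2.68 to 3.57, and their median of 4.18 was -2.23 without etanercept 17, which held most of their counts. Among the families of the members, Tgm2 was at -0.26 and Fcgbp at -0.12. The 5 scavenger receptor family genes tested lay between -1.69 for the lymphocyte receptor gene Cd6 (adjusted p of 0.739 in edgeR) and 0.37 for Cd5l, 3 of them negative, and Cd6 was the 1 gene of them at the unadjusted threshold.

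Several markers of stromal, immune and basal cells reached the unadjusted threshold, while no member did. Of 7 smooth muscle markers, 5 were higher with etanercept at that threshold, among them Cnn1 at a log2 fold change of 1.35, and their mean log2(CPM + 1) ranged from 7.34 to 8.57 in control and from 8.54 to 9.55 in etanercept-treated mice. Of 5 adipocyte markers tested, 4 were lower, with a mean level of 1.78 to 5.38 against 0.18 to 1.79. Of 9 leukocyte markers, 4 were lower, with 3.99 to 5.71 against 3.78 to 4.24, and the list's median log2 fold change of -0.79 was -0.23 without control 3. Of 5 basal markers, 2 were lower (Krt15 and Trp63), all 5 had negative log2 fold changes, and the median was -0.63. Among 8 luminal markers, 1 was higher (Cd24a, at a log2 fold change of 0.72), and among 5 proximal luminal markers, 1 was lower (Krt4, at -1.74). Of 6 skeletal muscle markers tested, 2 were lower, and the list's median of -3.17 was 1.53 without control 3. Of 6 fibroblast markers, 0 reached the threshold, with 3 higher and 3 lower. The percentage of all genes at this threshold was 2.99% higher and 3.63% lower. The part of these cells in the value of Tgm4 was not tested.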

How the data were processed

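Frozen whole prostates of 8 mice were measured by bulk RNA-seq. According to the study's methods and the submitters' processing notes, the authors trimmed reads with fastp, mapped them with STAR 2.6.1d and counted them per gene with featureCounts 1.5.0-p3. The deposited values are raw counts, whole and not normalized, and the authors used DESeq2 1.26.0 for their own test. The processing notes name the build mm10, and the annotation and strand setting are not given in the sources used here, so genes that overlap on opposite strands are uncertain. The deposited table held 54532 identifiers, of which 54495 matched GENCODE M21 and 37, with 0.00429% of all counts, did not.

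The groups were compared by the quasi-likelihood test of edgeR 4.0.16 in R 4.3.3, after TMM scaling and filterByExpr (minimum count 10). P-values were adjusted for 15472 tested genes after Benjamini and Hochberg, and 0.05 was the threshold for a call. The fit was tested on simulated data. CPM are TMM-scaled, FPKM divide them by exonic length, and correlations use a pseudocount of 1. Total counts per mouse, from 13760669 to 25178942, set the counting error. Shares have Wilson 95% intervals, and a floor of 3 counts was used. Both cover counting error only. The labels give 1 animal per library, so the spread is between mice.

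Alternatives were DESeq2 1.42.0, other scalings and filters, the animal number as a factor and leaving out each mouse. The ventral score and ratios to Pbsn were added after the data were seen. The members, lists and alternatives were chosen with earlier results of these data known. Named genes were the 5 members, the members with counts of the lists of related secretory, family and androgen genes, the 3 genes with the smallest p and the 3 with the highest FPKM of each other list, and the 5 genes most alike to each member. Some genes of the androgen list are not reported here.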

Additional observations from a re-analysis of the deposited data

Results flagged for a closer look

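In each group of 4 mice, the highest and the lowest mouse were compared with the others by the gap to the nearest mouse over the whole range (Dixon's ratio at the 95% level). Of 76 groups of values, 8 had a mouse beyond it (10.5%). A rate of about 1 in 20 holds for independent, normally distributed values. These groups share mice and genes, so 10.5% cannot be read as an excess over it. Etanercept 17 accounted for 4 of the 8. Its share of seminal vesicle products was 9.41% of all counts, its log2 ratio of 5430419D17Rik to 9530002B09Rik was -4.56, its mean log2(CPM + 1) of the ventral and lateral genes was 7.996, and that of the transglutaminases other than Tgm4 was 2.84. The share of seminal vesicle products in control 69, 0.366%, stood apart from the other control mice.

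Control 1 was the low mouse for the log2 ratio of Tgm4 to Pbsn, at -3.13, and for the mean log2(CPM + 1) of the smooth muscle markers, at 7.34. Control 3 was the high mouse for the skeletal muscle markers, at 7.21. The causes of these values were not tested.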

How the results depend on the processing

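No member was called under any of the alternatives run. DESeq2 called 21 genes where edgeR called 0, among them 2 of the other lists (Krt4 and Retn). With the ventral score as a covariate, the log2 fold change of Pbsn was 0.41 and that of 5430419D17Rik -1.13, both opposite to the fit without it. Leaving out single mice gave log2 fold changes from -0.45 to 0.24 for Pbsn, from 0.96 to 2.21 for Tgm4, from -0.20 to 0.51 for 9530053A07Rik, from 0.07 to 1.23 for 9530002B09Rik and from -0.27 to 1.255 for 5430419D17Rik. The cause was not tested. For the members, the other scalings, the filters and the animal number as a factor turned no fold change. Medians of lists turned their sign in places. The median of the 5 members went from 0.13 to -0.04 without control 3 and to 1.22 without control 69, that of the seminal vesicle genes from 4.18 to -2.23 without etanercept 17 and to -0.76 with the ventral score, that of the skeletal muscle markers from -3.17 to 1.53 without control 3, and that of the urothelial markers from -0.13 to 0.05 with the animal number as a factor. The medians of the ventral, transglutaminase, secretory pathway, nerve and vas lists also turned under at least 1 alternative. With 4 mice a group and a highest-to-lowest spread of 6.35-fold to 158-fold (16.1-fold without etanercept 17 for 5430419D17Rik), the precision of the members is limited by the mice and not by the depth. No paired analysis was possible because the groups share no animal numbers.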
